A study of Homo sapiens with 4 samples.

Results

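EGR, NR4A and IER genes were compared between AGS cells exposed to 0.01% ornithogalum and AGS cells given its ethanol vehicle, each for 36 h. The group was defined by name as 10 genes, EGR1 to EGR4, NR4A1 to NR4A3, IER2, IER3 and IER5. They were chosen with earlier results of these data known. Of the 10 genes, 9, all but EGR2, had a transcript cluster with a single gene symbol in the array annotation. EGR2 was not analysed here. The 9 genes were covered by 11 clusters (sets of probes over 1 transcript locus) among the 21214 clusters tested, because IER3 had 3. AGS is an established human gastric adenocarcinoma line, grown in plates before treatment, and ornithogalum is a homeopathic formulation whose composition the labels do not give. The 2 groups had 2 arrays each, called biological replicates in the labels. Whether the replicates were separate cultures or experiments is not stated, and p-values therefore cover only the spread among these 4 arrays. Total RNA was hybridised to Affymetrix Human Gene 1.0 ST arrays, and the deposited values are log2 expression after robust multi-array averaging (RMA).

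Early genes of this kind are switched on by growth factors, stress and other signals without a need for new protein synthesis, and in most cells their transcripts appear quickly and decay quickly. EGR proteins are zinc finger transcription factors that bind GC-rich sites and are held in check by the NAB corepressors. NR4A proteins are orphan nuclear receptors that can act without a ligand and bind DNA as monomers or dimers. IER proteins are small early response proteins without a DNA-binding domain of the EGR or NR4A type, with roles in survival, kinase signalling and heat shock factor activity. The arrays sampled 1 late time, so the values below are levels at 36 h and hold no time course.

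Of the 9 measured genes, 6 were higher with ornithogalum and 0 were lower, at an adjusted p under 0.05 in limma fitted across all clusters with Benjamini-Hochberg adjustment. They were NR4A2, EGR1, IER2, IER5, NR4A1 and, narrowly, IER3. Among all clusters tested, 6.57% were called higher and 12.6% lower, 19.2% in all. By family, the calls covered 1 of 3 measured EGR genes, 2 of 3 NR4A genes and 3 of 3 IER genes. The median log2 difference over the 9 genes was 0.70, beside 0.04 over all clusters. As the members were chosen with earlier results of these data known, their count and median are not independent evidence. All of these calls rested on both vehicle arrays. Without vehicle replicate 1 or without vehicle replicate 2, limma called 0 of the 9 genes and 0 clusters anywhere, with 5 of the 9 and 4192 and 3986 clusters at an unadjusted p under 0.05. In those fits the lone vehicle array is assumed to vary like the ornithogalum pair, the only pair left within a group, and the differences of the 6 genes were 1.83 and 1.94 for NR4A2, 1.46 and 1.36 for EGR1, 1.09 and 0.88 for IER2, 0.66 and 0.81 for IER5, 0.71 and 0.69 for NR4A1 and 0.60 and 0.62 for IER3. As these are bulk samples, a change in the share of cells that express a gene and a change in its RNA per cell cannot be told apart.

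**Figure D1:**
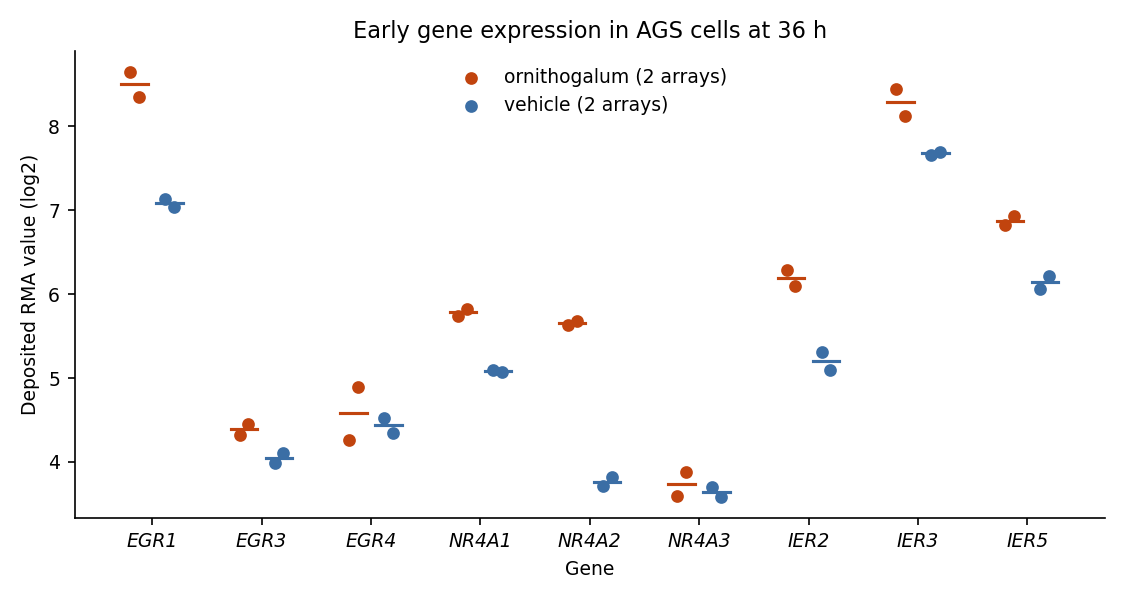
Deposited RMA value (log2, vertical axis) of each measured gene (horizontal axis) on each array, with ornithogalum in orange at the left of each pair and vehicle in blue at the right; points are arrays, bars are group means, and IER3 is shown by its brightest cluster. The groups are apart for 7 of the 9 genes and overlap for EGR4 and NR4A3; the widest separation is that of NR4A2, at 5.63 and 5.68 on the ornithogalum arrays against 3.71 and 3.82 on the vehicle arrays.

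EGR1 is the most widely studied EGR factor and is induced by mitogens and by many stresses. Its promoter is shown because it was the one EGR gene that passed the test and because it holds the elements through which serum and cyclic AMP signals are known to act. The RefSeq window from 250 bases before to 50 after the gene start lies at chr5:138465229-138465528 on the plus strand (GRCh38.p14). Capitals mark matches on either strand to the CArG box (the element bound by serum response factor), to TGACG (the core of cyclic AMP response elements) and to GCGNGGGCG (the site bound by EGR proteins themselves).
EGR1 promoter: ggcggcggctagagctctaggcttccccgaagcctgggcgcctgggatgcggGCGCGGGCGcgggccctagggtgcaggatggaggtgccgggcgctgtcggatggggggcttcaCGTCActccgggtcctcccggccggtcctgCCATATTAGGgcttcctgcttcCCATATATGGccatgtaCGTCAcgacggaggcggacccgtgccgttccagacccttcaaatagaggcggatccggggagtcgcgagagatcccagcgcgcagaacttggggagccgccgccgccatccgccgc
It held 2 CArG boxes, at -105 to -96 and at -83 to -74, counting bases from the gene start at 0, 2 TGACG cores and 1 EGR site. CArG boxes occurred in 1.29% of the 35116 RefSeq promoter windows of this length, TGACG in 24.6% and GCGNGGGCG in 9.43%.

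EGR1 had values of 8.65 and 8.36 on the ornithogalum arrays against 7.14 and 7.04 on the vehicle arrays. Both ornithogalum arrays lay above both vehicle arrays, with a gap of 1.21 log2 units between the closest 2. The mean was 8.50 ± 0.21 with ornithogalum and 7.09 ± 0.07 with vehicle (SD, n = 2 arrays each), so EGR1 rose 2.66-fold (log2 difference 1.41, SE 0.15, 95% interval 1.04 to 1.78, limma adjusted p = 0.00555). The adjusted p was 0.0687 without vehicle replicate 1 and 0.0744 without vehicle replicate 2.

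EGR3, known from activated lymphocytes and neurons, had values of 4.33 and 4.45 on the ornithogalum arrays against 3.99 and 4.10 on the vehicle arrays. The groups did not overlap, but the gap was only 0.23. The difference of 0.34 (SE 0.12, 95% interval 0.03 to 0.65) did not pass the test in limma (adjusted p = 0.12), though its unadjusted p was 0.036 and it passed after centring each array on its median (0.50, adjusted p = 0.0473). EGR4, known mainly from neurons and germ cells, had 4.26 and 4.90 on the ornithogalum arrays against 4.53 and 4.34 on the vehicle arrays. The ornithogalum arrays thus lay on either side of the vehicle arrays. The difference was 0.14 with a 95% interval of -0.46 to 0.74 (limma adjusted p = 0.708), and it was -0.17 without ornithogalum replicate 2, so neither a fall of 1.37-fold nor a rise of 1.68-fold lay outside the interval.

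The EGR4 promoter is printed for contrast with that of EGR1, as an EGR gene that did not pass. It lies at chr2:73293499-73293798 on the minus strand (GRCh38.p14), and capitals mark TGACG on either strand.
EGR4 promoter: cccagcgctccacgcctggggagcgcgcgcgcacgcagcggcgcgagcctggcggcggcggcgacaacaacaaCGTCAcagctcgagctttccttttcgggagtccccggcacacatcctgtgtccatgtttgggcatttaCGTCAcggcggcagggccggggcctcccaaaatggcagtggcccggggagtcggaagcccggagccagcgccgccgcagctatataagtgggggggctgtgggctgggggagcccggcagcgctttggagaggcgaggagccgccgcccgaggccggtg
It held 2 TGACG cores, as that of EGR1 did, and no CArG box within these letters. These matches describe sequence only and say nothing about which factor was bound. The window of EGR3, which did not pass either, was not searched. The contrast is thus between EGR1 and EGR4 alone, and a link between a CArG box and a rise was not tested.

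In the NR4A family, NR4A2 (also called NURR1), known for its part in dopamine neurons and in the response of many cells to cyclic AMP and inflammatory signals, showed the largest measured difference of the 9 genes. Whether its vehicle values were above background is not known, since the table holds no detection calls, so the size of its fold change carries that limit. Its values were 5.63 and 5.68 on the ornithogalum arrays against 3.71 and 3.82 on the vehicle arrays. The arrays within each group lay within 0.11 of each other, and the gap between the groups was 1.81. NR4A2 averaged 5.65 ± 0.04 with ornithogalum and 3.77 ± 0.08 with vehicle (SD, n = 2 arrays each) and rose 3.70-fold (log2 difference 1.89, SE 0.12, 95% interval 1.59 to 2.18, limma adjusted p = 0.00336). It also lost its call without either vehicle array, while the difference itself ran from 1.83 to 2.05 over the 12 alternative settings. By construction it stayed at 1.89 with the replicate block, array weights, intensity trend, brighter clusters only and all clusters. Those settings do not test its size.

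NR4A1 (also called NUR77), which is induced by growth factors and antigen receptors and can promote apoptosis from the mitochondrion, had 5.74 and 5.82 on the ornithogalum arrays against 5.10 and 5.07 on the vehicle arrays. Both groups were tight and did not overlap. NR4A1 averaged 5.78 ± 0.06 with ornithogalum and 5.08 ± 0.02 with vehicle (SD, n = 2 arrays each) and rose 1.62-fold (log2 difference 0.70, SE 0.11, limma adjusted p = 0.0156). The adjusted p was 0.158 without vehicle replicate 1 and 0.174 without vehicle replicate 2.

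NR4A3 (also called NOR1), the third receptor of the family, had 3.59 and 3.88 on the ornithogalum arrays against 3.70 and 3.59 on the vehicle arrays. The groups overlapped, with ornithogalum replicate 1 inside the range of the vehicle arrays. Its difference was 0.09 (SE 0.15, 95% interval -0.28 to 0.47, limma adjusted p = 0.698), and -0.052 without ornithogalum replicate 2. The upper bound of that interval, a 1.38-fold rise, lay below the lower bound of NR4A2, a 3.01-fold rise, and the difference between these 2 genes was not tested.

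The NR4A3 promoter is shown because it had the most TGACG cores of the members' windows searched although the gene did not pass. It lies at chr9:99821635-99821934 on the plus strand (GRCh38.p14), and capitals mark TGACG on either strand.
NR4A3 promoter: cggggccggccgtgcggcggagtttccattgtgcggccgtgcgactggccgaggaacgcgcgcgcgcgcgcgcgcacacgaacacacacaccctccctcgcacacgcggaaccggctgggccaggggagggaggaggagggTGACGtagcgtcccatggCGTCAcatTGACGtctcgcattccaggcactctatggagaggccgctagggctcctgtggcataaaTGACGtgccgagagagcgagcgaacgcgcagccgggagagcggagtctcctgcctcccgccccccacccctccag
It held 4 TGACG cores. The search covered 7 RefSeq windows of 6 measured genes, and none of EGR3, NR4A2 or IER3. NR4A1 had more than 1 window, at chr12:52022582-52022881 and at chr12:52037465-52037764. TGACG occurred in 4 of the 6 (EGR1, EGR4, NR4A3 and IER2), beside 24.6% of all windows. A CArG box occurred in 1 (EGR1), beside 1.29% of all windows. The shares count windows and the counts here count genes, and enrichment was not tested. The full palindrome TGACGTCA (1.85% of all windows) and AAAGGTCA, the element that NR4A monomers bind (1.22% of all windows), occurred in 0 of the 6. Of the 6 genes searched, EGR1 and IER2 rose with TGACG in the window, and EGR4 and NR4A3 had it and did not pass. IER5 rose without it in its window, and NR4A1 without it in either of its windows. Which gene start NR4A1 used in these cells is not known.

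All 3 IER genes were called higher, IER3 by 1 of its 3 clusters. IER2, a nuclear protein tied to cell motility and to phosphatase PP2A, had 6.28 and 6.09 on the ornithogalum arrays against 5.31 and 5.10 on the vehicle arrays. The groups were 0.79 apart at their closest, against 0.19 between the ornithogalum arrays and 0.21 between the vehicle arrays. IER2 rose 1.98-fold (log2 difference 0.99, SE 0.14, 95% interval 0.63 to 1.35, limma adjusted p = 0.0114), and its adjusted p was 0.0885 and 0.125 without vehicle replicate 1 and 2.

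IER5, which brings PP2A to heat shock factor 1 and so activates that factor, had 6.82 and 6.93 on the ornithogalum arrays against 6.07 and 6.22 on the vehicle arrays. The groups did not overlap. IER5 averaged 6.88 ± 0.08 with ornithogalum and 6.14 ± 0.11 with vehicle (SD, n = 2 arrays each) and rose 1.66-fold (log2 difference 0.73, SE 0.12, limma adjusted p = 0.0178). The adjusted p was 0.183 without vehicle replicate 1, 0.134 without vehicle replicate 2 and 0.0511 when limma was fitted on all 33297 clusters of the table, named or not.

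The IER5 promoter is shown because IER5 is itself a known target of heat shock factor 1. It lies at chr1:181088450-181088749 on the plus strand (GRCh38.p14), and capitals mark GAANNTTC, a pair of facing heat shock units, which reads the same on both strands.
IER5 promoter: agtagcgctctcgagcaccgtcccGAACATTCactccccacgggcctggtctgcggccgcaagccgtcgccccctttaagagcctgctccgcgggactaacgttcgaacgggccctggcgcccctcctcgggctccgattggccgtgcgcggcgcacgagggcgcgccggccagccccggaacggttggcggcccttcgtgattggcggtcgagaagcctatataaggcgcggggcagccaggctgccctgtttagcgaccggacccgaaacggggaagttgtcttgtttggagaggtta
It held 1 match, at -226 to -219, and GAANNTTC occurred in 6.77% of all windows and in 1 of the 6 genes searched. HSF1, the gene of that factor, had a difference of 0.10 and did not pass (limma adjusted p = 0.603). That value is an RNA level, and the activity of the factor was not measured. HSF1 is 1 of the 17 partners and mRNA decay factors counted below and is named here outside the naming rule.

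IER3 (also called IEX-1), which counters or favours cell death depending on the signal and prolongs ERK activity, was measured by 3 clusters, 2 of which hold identical values. They carry the same gene, so they are not independent. The brightest cluster had 8.45 and 8.12 on the ornithogalum arrays against 7.66 and 7.69 on the vehicle arrays, and the identical pair had 8.31 and 7.98 on the ornithogalum arrays against 7.55 and 7.57 on the vehicle arrays. In each cluster the groups did not overlap, and the ornithogalum arrays were farther apart than the vehicle arrays. The brightest cluster rose 1.52-fold (log2 difference 0.61, SE 0.15, limma adjusted p = 0.049), and the identical pair had a difference of 0.59 with an adjusted p of 0.0533, just outside the threshold. The brightest cluster lost its call in 6 of 12 alternative settings, with adjusted p of 0.0593 without ornithogalum replicate 1, 0.274 without vehicle replicate 1 and 0.269 without vehicle replicate 2.

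**Figure D2:**
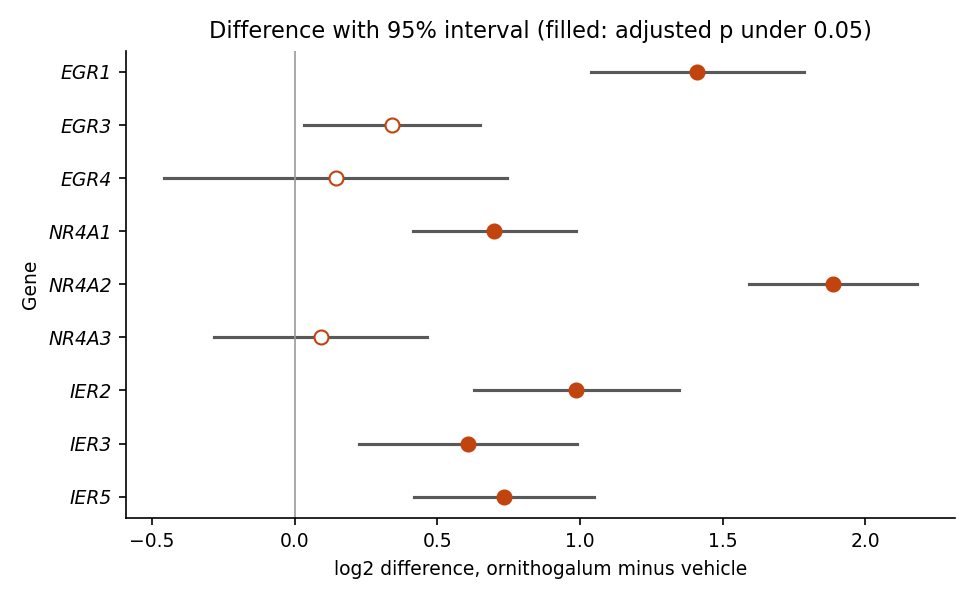
Log2 difference, ornithogalum minus vehicle (horizontal axis), of each measured gene (vertical axis) with limma's 95% interval as a line; filled points passed an adjusted p under 0.05, open points did not. The intervals of EGR4 (-0.46 to 0.74) and NR4A3 (-0.28 to 0.47) include 0, and NR4A2 (1.59 to 2.18) and EGR1 (1.04 to 1.78) lie farthest to the right.

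Taking all 9 genes, the ornithogalum arrays lay above the vehicle arrays without overlap in 7, where 32% of all clusters did so. The ornithogalum arrays did not differ from each other in 1 direction: replicate 2 was above replicate 1 in 6 genes and below it in EGR1, IER2 and IER3, by -0.32 (IER3) to 0.64 (EGR4). The median SD within the group was 0.135 for ornithogalum and 0.078 for vehicle over these genes, beside 0.138 and 0.081 over all clusters, so their spread was like that of the table. The table holds no detection calls, so whether EGR3, EGR4 and NR4A3, whose means over the 4 arrays were below the median cluster, were above background is not known.

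Across the 9 genes the median profile, as differences from the vehicle mean, stood at 0.68 and 0.74 for ornithogalum against 0.01 and -0.01 for vehicle. The 5 genes outside the group with the most similar profiles, by Euclidean distance over the 4 arrays, were the metallothionein MT2A (distance 0.019), the Hippo pathway kinase LATS2 (0.0229), the cold shock domain protein YBX3 (0.0291), KHDC4 (0.0317) and the proton pump subunit ATP6V0E1 (0.0339). With 4 arrays in 2 groups, such likeness says little beyond a similar difference, and their differences ran from 0.70 to 0.73.

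Other immediate early genes rose in most cases. Of 38 measured among 40 listed, 27 rose and 0 fell (71.1% called higher, beside 6.57% of all clusters), with a median log2 difference of 1.32. PHLDA1, a pleckstrin homology domain gene, had 8.43 and 8.43 on the ornithogalum arrays against 5.80 and 5.95 on the vehicle arrays and rose 5.87-fold (limma adjusted p = 0.00336). DUSP1, a phosphatase of MAP kinases, had 7.66 and 7.57 on the ornithogalum arrays against 5.48 and 5.58 on the vehicle arrays and rose 4.25-fold, and PPP1R15A, a phosphatase subunit acting on the translation factor eIF2-alpha, had 9.26 and 8.95 on the ornithogalum arrays against 5.97 and 6.26 on the vehicle arrays and rose 7.94-fold. The groups of all these 3 genes were far apart. The list was drawn up with earlier results of these data known, and several of its genes had been seen to rise, so its count is not independent evidence.

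Of the regulators through which signals reach early gene promoters, a share near that of the whole table was called. Of 21 measured (serum response factor, its ETS and myocardin-related partners, CREB and MEF2 factors, and kinases of the ERK and p38 pathways), 3 rose and 2 fell (23.8% called, beside 19.2% of all clusters), with a median of 0.14. SRF, which binds the CArG box and is an early gene itself, had 6.95 and 6.96 on the ornithogalum arrays against 6.17 and 6.31 on the vehicle arrays and rose 1.64-fold (limma adjusted p = 0.0163). The groups did not overlap. ELK4, an ETS partner of SRF, rose 1.45-fold (limma adjusted p = 0.0299) and CRTC2, a CREB coactivator, rose by 0.585 on the log2 scale (0.03). MAPK3, which encodes the kinase ERK1, had 7.12 and 6.85 on the ornithogalum arrays against 8.11 and 8.22 on the vehicle arrays and fell 2.26-fold (limma adjusted p = 0.00769). Without vehicle replicate 1 or 2 limma called 0 genes of this list, and otherwise the number that rose ranged from 1 with the replicate number as a block to 7 after median centring.

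Among 17 partners and mRNA decay factors, 2 rose and 1 fell (17.6% called, beside 19.2% of all clusters), with a median of 0.08. NAB2, a corepressor that EGR factors induce, had 5.60 and 5.66 on the ornithogalum arrays against 5.32 and 5.35 on the vehicle arrays. These groups did not overlap, but the difference of 0.29 did not pass (limma adjusted p = 0.141). NAB1, its relative, had a difference of -0.31 (limma adjusted p = 0.183), and RXRA, the retinoid X receptor that pairs with NR4A1 and NR4A2, had -0.27 (0.358). ZFP36, which binds AU-rich elements of early transcripts and speeds their decay and is an early gene too, had 9.05 and 8.23 on the ornithogalum arrays against 6.55 and 6.62 on the vehicle arrays and rose 4.16-fold (limma adjusted p = 0.0103). PPP2R2A, a regulatory subunit of PP2A, rose 2.53-fold (limma adjusted p = 0.00412). HNRNPD, another AU-rich element binding protein gene, fell 1.94-fold (limma adjusted p = 0.0107).

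Most EGR1 target genes known from other systems did not pass (73.9%), and neither did most clusters of the table. Of 23 measured, 4 rose and 2 fell (26.1% called, beside 19.2% of all clusters), with a median of 0.08. The share called higher was 17.4%, beside 6.57% of all clusters. GADD45A and GADD45B, which act in growth arrest and stress kinase signalling, rose 6.46-fold and 2.66-fold (limma adjusted p = 0.00336 and 0.00554), and the cell cycle inhibitor gene CDKN1A rose 2.09-fold (0.00642). ALOX5, the 5-lipoxygenase gene, had 5.10 and 5.21 on the ornithogalum arrays against 6.73 and 6.99 on the vehicle arrays and fell 3.25-fold (limma adjusted p = 0.00384). Many of these genes have other regulators, among them p53 for CDKN1A and GADD45A. NAB2, ZFP36 and GADD45B each stand in 2 of the lists.

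**Figure D3:**
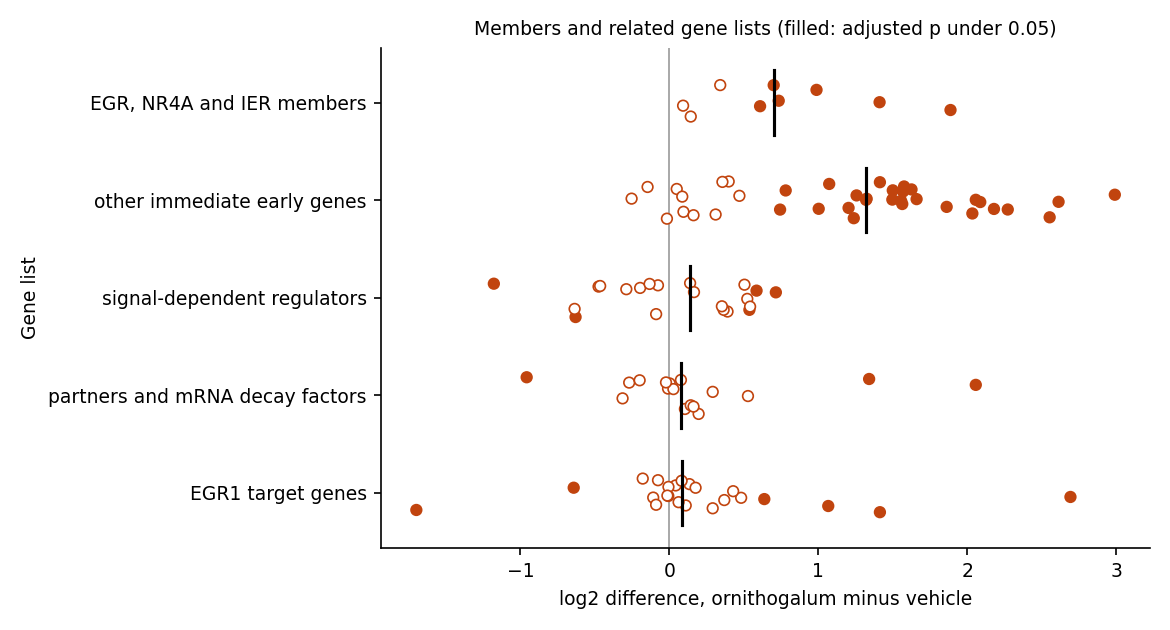
Log2 difference, ornithogalum minus vehicle (horizontal axis), of each measured gene in the EGR, NR4A and IER group and in 4 related lists (vertical axis, points spread vertically for legibility); filled points passed an adjusted p under 0.05 and black lines are medians. The medians are 0.70 for the group, 1.32 for other immediate early genes, 0.14 for signal-dependent regulators, 0.08 for partners and decay factors and 0.08 for EGR1 targets.

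Scaling did not turn the direction of any of the 6 genes that rose, though IER3 lost its call under quantile normalization (adjusted p = 0.054). Centring each array on its median moved the median of all differences to 0.20, against 0.04 as deposited, and the median of the 9 genes to 0.86, against 0.70. Centring shifts all clusters alike, so the distance of 0.66 between these medians is fixed by its construction. The distance was 0.77 under quantile normalization and 0.79 under cyclic loess. The arrays themselves differed in distribution, with interquartile ranges of 2.44 and 2.56 on the ornithogalum arrays against 2.72 and 2.71 on the vehicle arrays. Epithelial markers were bright in both groups, between 6.54 and 10.6, and of 5 measured KRT19 alone passed, 2.63-fold lower with ornithogalum (limma adjusted p = 0.00437). Of 15 measured markers of fibroblasts, leukocytes and endothelium 0 passed in either direction, and their summed log2 values were 58.9 and 58.4 on the ornithogalum arrays against 57.6 and 57.4 on the vehicle arrays. LYZ, the brightest of them and also a gene of stomach epithelium, had a difference of -0.04.

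**Figure D4:**
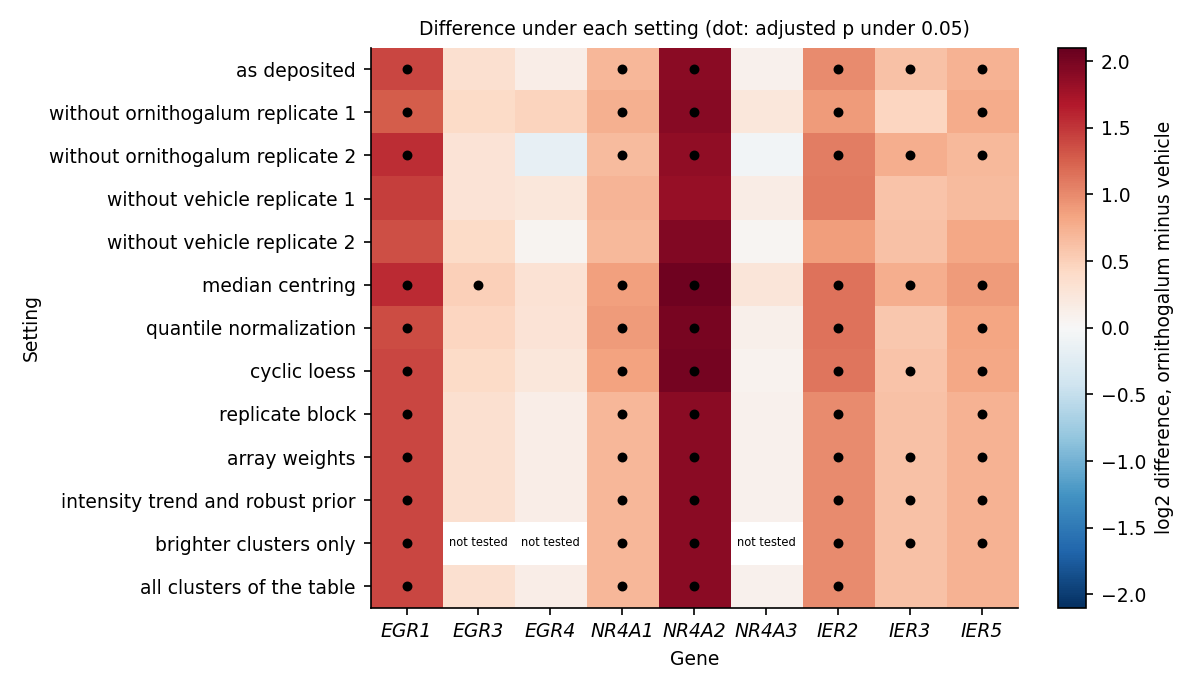
Log2 difference, ornithogalum minus vehicle (colour), of each measured gene (horizontal axis) as deposited and in 12 alternative settings (vertical axis). A dot marks an adjusted p under 0.05, and clusters dropped by the filter on dim clusters are marked as not tested. That filter used the mean of all 4 arrays. NR4A2 passed it through its ornithogalum values, as its vehicle mean of 3.77 lay below the vehicle array medians of 4.71 and 4.70. Its dot with brighter clusters only is therefore no separate support. NR4A2, EGR1, IER2 and NR4A1 keep their dot in 10 of the 12, all but those without a vehicle array, and EGR4 and NR4A3 turn negative without ornithogalum replicate 2.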

How the data were processed

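Expression was measured on 4 arrays, 2 per group. The authors deposited log2 values, and the submitters' processing notes name RMA and Affymetrix Expression Console 1.1. Scaling settings and genome build: not given in the sources used here. Clusters were named from the platform annotation of 2016 with symbols updated by gene number in RefSeq. The 21214 clusters with at least 1 symbol were fitted with limma 3.58.1 in R 4.3.3 (lmFit, eBayes, no trend), two-sided, Benjamini-Hochberg over all of them, with no filter on dim clusters. A gene with several 1-symbol clusters was represented by the one of highest mean. A fold change is 2 to the power of the log2 difference. The number of arrays limits the precision; an exact permutation test of 2 arrays against 2 cannot go below p = 0.333. The fit was run on simulated data with an equal spread in both groups. In the real data the ornithogalum arrays varied more than the vehicle arrays, so that run does not cover unequal spread. Of each list, the genes of smallest p among those called were named, up to 3 in the direction with more calls and 1 in the other, and NAB1, NAB2, SRF and RXRA always. The members and lists were chosen with earlier results of these data known. Alternatives were the replicate block, leaving out each array, 3 scalings, an intensity trend with robust prior, array weights, brighter clusters only and all clusters. Promoter windows came from RefSeq (GRCh38.p14), and motifs were searched on both strands.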

Additional observations from a re-analysis of the deposited data

How the results depend on the processing

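The count of the group's clusters called higher was 6 of 11 and that of its genes 6 of 9. With the replicate number as a block they were 5 and 5, and the block gave 1035 clusters higher and 2267 lower, against 1393 and 2683 without it. The labels share replicate numbers between groups but do not say that a number marks a shared batch, and deviations of same-numbered arrays from their group means correlated at r = -0.059 across clusters. Leaving out each array gave 0 to 8 clusters and 0 to 6 genes of the group higher, 0 to 3054 clusters higher and 0 to 4004 lower in the table, 0 to 5 EGR1 targets higher and 0 to 2 lower, 0 to 29 other immediate early genes higher, 0 to 3 partners and decay factors higher and 0 to 2 lower, and 0 to 5 regulators higher and 0 to 3 lower. The zeros come from leaving out a vehicle array, with 0 calls anywhere. Median centring gave 9 of the group's clusters and 2238 clusters of the table higher and 1898 lower, with 7 regulators higher and 1 lower. Fitting all clusters of the table gave 4 of the group's clusters, 4 genes and 1677 clusters lower, with 1 EGR1 target lower and 1 regulator each way. Regulators higher were 6 with brighter clusters only, 5 with cyclic loess, with an intensity trend and with quantile normalization (1 lower), and 1 with the block. Partners and decay factors higher were 4 with cyclic loess and with quantile normalization. Leaving out each array gave differences of -0.17 to 0.46 for EGR4 and -0.052 to 0.24 for NR4A3, both negative only without ornithogalum replicate 2. No other direction changed among the group's clusters in these settings, and the cause of these shifts was not tested. No group member was called lower in any setting.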

Other observations

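The NR4A genes belong to the nuclear receptor superfamily, and the other receptors were looked up after the results above were known, so this list is a description. Of 36 measured among 45 listed, 4 were called higher and 6 lower in limma's fit across all clusters (27.8% called, beside 19.2% of all clusters, made up of 6.57% higher and 12.6% lower), with a median log2 difference of 0.02. NR1D1 and NR1D2, repressors of the circadian clock, were higher by 9.04-fold and 2.32-fold (limma adjusted p = 0.00336 and 0.00493). The vitamin D receptor gene VDR had 5.21 and 5.14 on the ornithogalum arrays against 4.31 and 4.33 on the vehicle arrays, 1.81-fold higher (limma adjusted p = 0.00894), and NR6A1 was 1.53-fold higher (0.0339). PPARG, which drives fat storage genes, had 6.20 and 6.58 on the ornithogalum arrays against 7.25 and 7.23 on the vehicle arrays, 1.80-fold lower (limma adjusted p = 0.025), with PPARA 1.43-fold and the thyroid hormone receptor gene THRA 1.68-fold lower. Their relatives PPARD and THRB had differences of 0.05 and -0.42 and did not pass (limma adjusted p = 0.797 and 0.11). NR5A2, a receptor of the gut and liver, was 1.72-fold lower, ESRRG 1.80-fold and the mineralocorticoid receptor gene NR3C2 1.45-fold. As for the NR4A genes, 0 clusters passed without either vehicle array.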
